A study of Mus musculus with 4 samples.

Results

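The genes described here are the ligands, receptors, binding proteins and receptor substrates of insulin-like growth factor (IGF) signalling: Igf1, Igf2, Igf1r, Igf2r, Igfbp2, Igfbp3, Igfbp4, Igfbp5, Irs1 and Irs2. Probes were taken where the platform's table gave 1 gene symbol and that symbol was one of these. This found 14 of the 29922 probes, for 9 of the 10 genes among 16675 genes in all; Irs2 had no such probe and is not analysed here. Whole hearts of mouse embryos at embryonic day 9.5, from a C57bl/6 x129 hybrid background, were pooled into 2 control samples, labelled wild-type, and 2 samples labelled Salv CKO, in which Salvador (Sav1), a scaffold of the Hippo kinases, was conditionally deleted. The design text calls the pools biological replicates; the sources used here do not give the number of hearts in each, the Cre driver or whether controls were littermates. Each pool was amplified, labelled with Cy5 and hybridised to 1 array.

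IGF1 and IGF2 are secreted peptides that bind the IGF1 receptor, a tyrosine kinase that signals through the insulin receptor substrates to PI3 kinase, Akt and MAP kinases. The IGF2 receptor, which is also the cation-independent mannose 6-phosphate receptor, has no kinase and carries IGF2 to lysosomes for breakdown. The binding proteins hold IGFs outside the cell, and proteases release them again. In the embryo IGF2 is a main growth factor, and IGF signalling promotes the growth of heart muscle cells; Yap, the coactivator that the Hippo pathway restrains, has been linked to IGF signalling in the embryonic heart, which is the question these genes bear on.

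In the Salv CKO pools Igfbp2 rose 1.60-fold, Igf2r fell, at 2.02-fold lower intensity, and Igfbp5 fell, at 1.43-fold lower intensity. These were the calls at a limma adjusted p under 0.05 over all genes: of 9 genes 1 was higher and 2 were lower, beside 4.92% and 5.73% of all genes. The call of Igfbp2 rested on the scaling: it was not made with the values as deposited or with division by the median. Igf2r and Igfbp5 were called under each scaling, Igfbp5 narrowly with division by the median (limma adjusted p = 0.0482). Igf1, Igf1r and Igfbp4 were also lower in both Salv CKO pools than in both controls, without passing the test. The probes of Igfbp3 disagreed, with no difference on the brighter and a rise on the dimmer. Igf2 was too bright to be measured and Irs1 was not above background. As the tissue is whole heart, fewer cells that express a gene and less RNA per cell cannot be told apart.

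Levels are log2 intensities after quantile normalisation between the arrays, and differences are log2 Salv CKO minus control with limma's standard error and n = 2 pools per group. A level is compared only with the same probe on other arrays. Over the 12395 genes that lay above background on every array the median difference was -0.04 on this scale. It was -0.03 with each array divided by its 75th percentile, -0.17 with each divided by its median, and -0.44 for the deposited values without scaling. A difference that rests on the scaling is marked as such. An array intensity over 16 counted as above background. For a single gene, 2 pools against 2 allow no exact permutation p under 0.333, so each call rests on the spread that limma pools over genes. No gene of the whole table passed when control pool 1, control pool 2, Salv CKO pool 1 or Salv CKO pool 2 was left out, nor when limma was fitted without the intensity trend. At an unadjusted p under 0.05 there were 3179 to 3439 genes with an array left out, 3573 without the trend and 4471 in the fit reported here.

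Sav1 was at 9.56 and 9.30 in the controls and at 9.19 and 9.13 in Salv CKO. Its difference of -0.27 ± 0.13 did not pass (limma adjusted p = 0.266; 0.0199 to 0.515 over the alternatives), though the groups did not overlap. The sources used here do not say whether its probe lies in the deleted part, and the labels cannot be checked by it. The heart muscle markers were present: all 11 measured genes of that list were above background on all 4 arrays.

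The bases before the start sites of the called genes are shown because Igfbp2 and Igfbp5 are neighbours on chromosome 1, with 0 protein-coding genes between them in the RefSeq table, and yet differed in opposite directions, and because Tead factors, the DNA-binding partners of Yap, recognise a short core motif. Each stretch is the 250 bases before the gene's start in RefSeq (GRCm38.p6), written 5′ to 3′ on the gene's strand. Capitals mark the core motif of Tead factors, GGAATG. They also mark the GC box, whose letters are GGGCGG and which can overlap another copy of itself. The TATA box, searched as TATAAA, would be in capitals too. Each motif was searched on both strands.
Igfbp2, chr1:72824230-72824479, plus strand: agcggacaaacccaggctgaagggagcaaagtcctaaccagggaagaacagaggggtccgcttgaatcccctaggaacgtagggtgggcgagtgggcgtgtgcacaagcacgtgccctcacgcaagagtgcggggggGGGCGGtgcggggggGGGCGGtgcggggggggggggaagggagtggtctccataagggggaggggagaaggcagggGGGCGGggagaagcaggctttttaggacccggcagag
Igfbp5, chr1:72874866-72875115, minus strand: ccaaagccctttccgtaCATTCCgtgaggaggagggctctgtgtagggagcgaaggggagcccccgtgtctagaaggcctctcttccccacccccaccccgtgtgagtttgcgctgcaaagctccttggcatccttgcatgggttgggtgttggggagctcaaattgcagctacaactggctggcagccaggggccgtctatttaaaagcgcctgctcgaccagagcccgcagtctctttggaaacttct
Igf2r, chr17:12769707-12769956, minus strand: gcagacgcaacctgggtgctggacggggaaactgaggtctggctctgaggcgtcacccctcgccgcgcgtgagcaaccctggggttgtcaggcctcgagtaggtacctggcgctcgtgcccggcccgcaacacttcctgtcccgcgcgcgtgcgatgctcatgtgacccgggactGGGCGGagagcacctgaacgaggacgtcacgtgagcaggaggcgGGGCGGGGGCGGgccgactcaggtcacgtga

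The Igfbp5 stretch held no GC box and 1 Tead core, on the opposite strand, so that the printed strand reads CATTCC. Those of Igfbp2 and Igf2r held 3 GC boxes each and no Tead core. None of these stretches held TATAAA. Over all 32851 start sites in the table, 12.6% had the Tead core in this window, 32.7% a GC box and 12.4% TATAAA. Igfbp2 has another RefSeq start with none of these motifs. Among members whose bases are not shown, Irs1 and some of the Igf2 starts also had the Tead core. Probe positions are not given in these sources, so no probe can be tied to a start site.

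Of the ligands, Igf1, which acts through the IGF1 receptor, was measured by 1 probe (mMC021536). Its deposited intensities were 407 and 551 in the controls and 235 and 246 in Salv CKO. On the normalised log2 scale these became 8.62 and 8.79 in the controls and 8.12 in each Salv CKO pool, so that the groups did not overlap. The difference of -0.58 ± 0.13 missed the threshold (limma adjusted p = 0.0597). It kept its direction under each scaling. It passed under 4 of the 15 alternatives, among them the values as deposited (-0.98) and division by the median (-0.71). With all 4 arrays in the fit the adjusted p lay between 0.0248 and 0.161.

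Igf2, the main IGF of the embryo, lay at the top of the scanner's range (mMC017936). It was deposited at 58275 and 63792 in the controls and 63706 and 65740 in Salv CKO, and 3 of the 4 arrays, both controls among them, were saturated. Its normalised values were 15.84 and 15.77 in the controls and 15.95 and 15.94 in Salv CKO. All but the last, which came from Salv CKO pool 2 and lay just under saturation, are bounds, and no fold is given. H19, the noncoding RNA that lies beside Igf2 and is expressed from the other parental allele, was saturated on all 4 arrays. A change of either transcript could not be measured on these arrays.

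Among the receptors, Igf2r showed the largest difference of the 7 members that were above background and not saturated, on the probe used for each gene. Deposited intensities on its only probe (mMC007221) were 2818 and 4514 in the controls and 1133 and 1397 in Salv CKO. The normalised levels were 11.34 and 11.81 in the controls against 10.43 and 10.70 in Salv CKO. Both Salv CKO pools lay well below both controls, while the controls differed from each other by more than the Salv CKO pools did. Igf2r fell by 1.01 ± 0.19 on the log2 scale (limma adjusted p = 0.0369). It was called under each scaling, at -1.09 with the 75th percentile, -1.23 with the median and -1.50 with the values as deposited. With a floor of 16 or 64 over all genes it was not called (adjusted p = 0.151 and 0.157; 0.00497 to 0.292 over all alternatives).

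Igf1r, the signalling receptor, had 3 probes. The brightest (mMC009262) was at 9.57 and 10.02 in the controls and 9.16 and 9.44 in Salv CKO, a difference of -0.49 ± 0.19 that did not pass (limma adjusted p = 0.189). The next (mMC024245), at 8.56 and 8.52 against 8.24 and 7.99, gave -0.43 ± 0.14, likewise without a call (adjusted p = 0.148 over all named probes). On both probes the Salv CKO pools were below both controls. The remaining probe (mMC025842) was not above background on any array, with deposited intensities of 0 to 4.87, and has no usable difference. The brightest probe was called with the values as deposited (-0.95, adjusted p = 0.0445) and with the replicate number as a block (adjusted p = 0.0447), and ranged from 0.0445 to 0.948 over the alternatives. The highest of these came from the mean of all probes, which gave -0.053 because it takes in the probe below background.

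Irs1, a substrate that couples the IGF1 and insulin receptors to PI3 kinase, was not above background on any array, at deposited intensities between -2.67 and 13.6 (mMR030291). No difference is given for it.

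**Figure D1:**
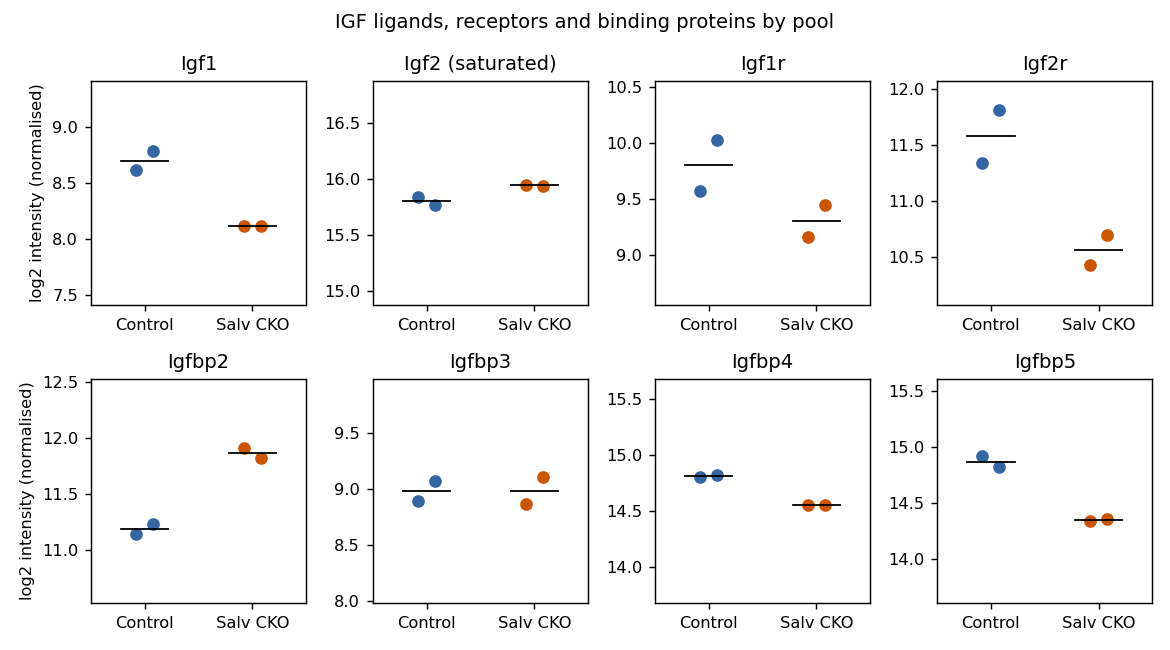
Normalised log2 intensity (vertical axis, each panel spanning the same number of log2 units) of the brightest probe of 8 members in each control and Salv CKO pool, with bars at the group means. Igf2r, Igf1, Igf1r, Igfbp4 and Igfbp5 were lower in both Salv CKO pools and Igfbp2 was higher, Igfbp3 overlapped, and Igf2 was saturated on 3 of 4 arrays.

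The binding proteins did not move together. Igfbp2, which is made by many embryonic epithelia, rose: its probe (mMC009016) was at 11.14 and 11.23 in the controls and 11.92 and 11.83 in Salv CKO. The pools of each group lay close together and the groups were far apart. The difference was 0.68 ± 0.08 (limma adjusted p = 0.0138). The call rested on the scaling. As deposited, its intensities were 2458 and 3017 in the controls and 3154 and 2997 in Salv CKO, where the groups overlapped and the difference was 0.18 (adjusted p = 0.443). It was 0.59 with the 75th percentile (adjusted p = 0.0151) and 0.45 with the median, where it was not called (adjusted p = 0.0679; 0.00248 to 0.443 over all alternatives). With a floor of 16 or 64 it was not called either (adjusted p = 0.0543 and 0.0532). The direction was the same under each scaling, and the other alternatives could not turn it, as the normalised groups did not overlap.

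A ratio of probes within an array does not depend on a factor applied to the whole array, so the deposited values were also set against each other; this was chosen after the values had been seen. The log2 ratio of Igfbp2 to Igfbp5 was -3.76 and -3.58 in the controls and -2.47 and -2.57 in Salv CKO, a rise of 1.15. The ratio of Igfbp2 to Igf2r went from -0.20 and -0.58 to 1.48 and 1.10, a rise of 1.68. Against Igf1, Igf1r, Igfbp4 and Igfbp3 the rises were 1.16, 1.13, 0.90 and 0.60. In all 6 ratios, which take the brightest probe of each member, both Salv CKO pools lay above both controls. The Igfbp3 ratio depends on the probe. As deposited, the dimmer Igfbp3 probe (mMR029503) rose by 0.66, more than the 0.18 of Igfbp2, so the ratio to that probe fell. Igfbp2, the only member called higher in the main fit, is the numerator of each of the 6. The 6 ratios therefore share 1 probe and are not separate results. These ratios restate the differences given above on a scale free of array factors; they were not tested, and they do not say which member of a ratio changed.

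**Figure D2:**
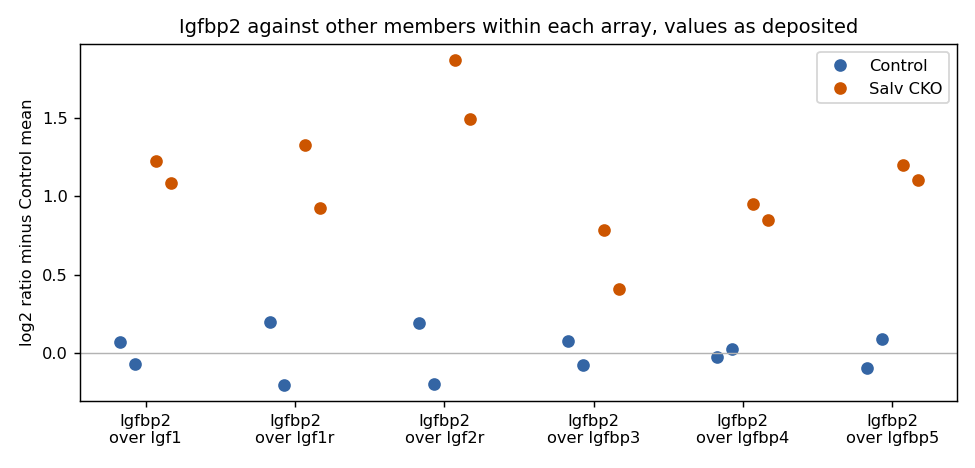
Log2 ratio of Igfbp2 to each of 6 other members within each array, from the deposited values, minus the mean of the control pools (vertical axis). Each member is on its brightest probe; against the dimmer Igfbp3 probe, which is not plotted, the ratio fell. Points are single pools, and in each ratio the Salv CKO pools lie above the controls, by 0.60 on average for Igfbp3 and by 1.68 for Igf2r.

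Igfbp5, a binding protein that also attaches to extracellular matrix, fell on its brighter probe (mMC019359) from 14.92 and 14.82 in the controls to 14.34 and 14.36 in Salv CKO. The groups were clearly apart, and the Salv CKO pools nearly coincided. The difference was -0.52 ± 0.07 (limma adjusted p = 0.0170). It was called under each scaling, though narrowly with division by the median (-0.71, adjusted p = 0.0482), and was -0.98 with the values as deposited. The other probe (mMR030084), at 14.89 and 14.67 against 14.63 and 14.30, lay in the same direction at -0.32 ± 0.14 but was not called (adjusted p = 0.254 over all named probes). The mean of both gave -0.42 without a call (adjusted p = 0.0684), as did a floor of 16 or 64 (adjusted p = 0.0613 and 0.0649; 0.00206 to 0.203 over all alternatives).

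Igfbp4, which is known mainly to restrain IGF action until a protease cleaves it, was bright, with deposited intensities of 30624 and 36243 in the controls and 19930 and 20344 in Salv CKO (mMC021232). After normalisation it was at 14.80 and 14.82 against 14.55 and 14.56. Replicates lay close together and the groups did not overlap, yet the difference of -0.26 ± 0.06 missed the threshold (limma adjusted p = 0.0609). Its size depended on the scaling, from -0.26 to -0.73 with the values as deposited. It passed under 4 of the 15 alternatives (adjusted p = 0.0186 to 0.421). The dimmer probe (mMC018060) was at 6.31 and 6.36 in the controls and at 4.82 and 6.55 in Salv CKO. Salv CKO pool 1 alone was low there, and its difference of -0.65 ± 0.61 became 0.21 without that pool.

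Igfbp3, the main IGF carrier of postnatal blood, could not be given a direction. The brighter probe (mMC015937) was at 8.89 and 9.07 in the controls and 8.86 and 9.11 in Salv CKO, and the groups overlapped. Its difference was 0.0038 ± 0.14 (limma adjusted p = 0.993), with an interval of -0.36 to 0.37 at the 95% level, and it was -0.42 with the values as deposited. The dimmer probe (mMR029503) stood at 7.51 and 7.46 in the controls and at 8.47 and 8.59 in Salv CKO, with no overlap. It rose by 1.05 ± 0.14 (adjusted p = 0.0183 over all named probes, of which 9.56% were called), and by 0.66 without a call with the values as deposited (adjusted p = 0.0868; 0.00366 to 0.216 over all alternatives). Which transcripts these probes detect was not tested.

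**Figure D3:**
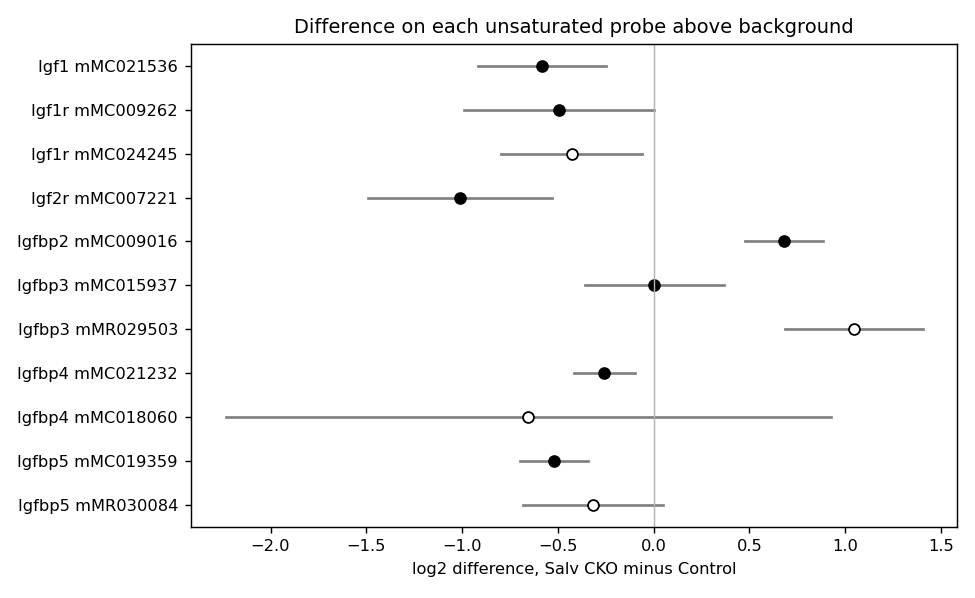
Log2 difference, Salv CKO minus control, with its 95% interval from limma (horizontal axis) on the 11 member probes that were above background on all arrays and not saturated; filled points are the probe used for the gene, open points the others. The Igf1r and Igfbp5 probes lie on the same side of 0, whereas those of Igfbp3 are at 0.0038 and 1.05.

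Of the 9 members, 5 had both Salv CKO pools below both controls, beside 29.0% of all genes, and 2, one of them the saturated Igf2, had both above, beside 25.2%. The median difference of the 7 members above background and not saturated was -0.49, beside -0.04 for all genes above background. With the values as deposited 5 members were called lower and none higher, where 230 genes in all were called higher and 3101 lower. With division by the median 3 members were called lower and none higher, where the whole table gave 378 and 1318, against 821 and 956 after quantile normalisation.

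**Figure D4:**
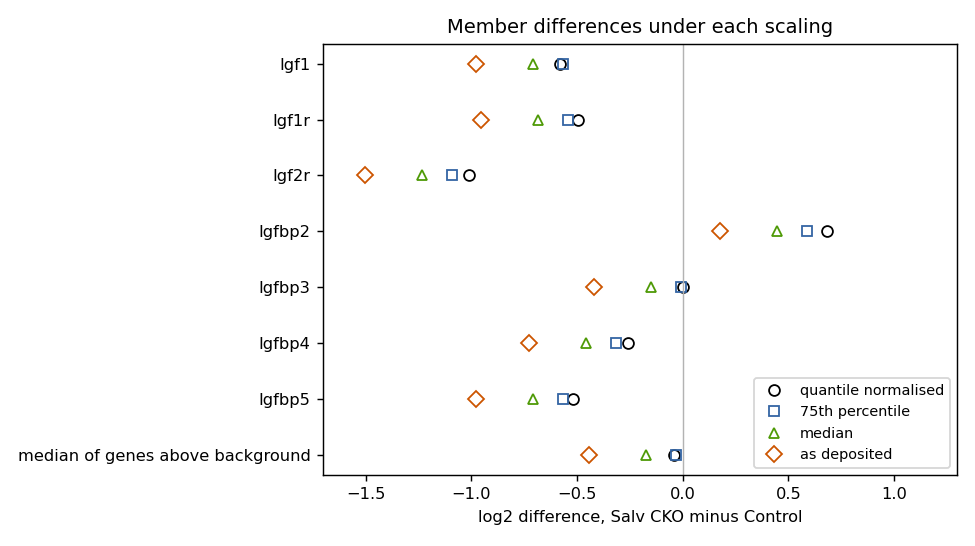
Log2 difference, Salv CKO minus control (horizontal axis), of 7 members under 4 scalings, and the median of all genes above background in the lowest line. Moving from quantile normalisation to the values as deposited lowers all 7 plotted members, from -1.01 to -1.50 for Igf2r and from 0.68 to 0.18 for Igfbp2, and turns Igfbp3 from 0.0038 to -0.42.

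Other genes of the IGF axis were mostly not called. Of 23 listed genes 20 were measured, of which 1 rose and 2 fell, with a median difference of -0.14. Over all genes 4.92% were called higher and 5.73% lower, so these counts are near the background. Igfbpl1, a secreted protein related to the binding proteins, fell by 1.65 ± 0.08 (limma adjusted p = 0.00617), from 11.02 and 10.94 in the controls to 9.34 and 9.32 in Salv CKO. Igfbp7, which binds IGFs weakly and is made by endothelium, fell by 0.94 ± 0.06 (adjusted p = 0.00687), from 13.08 and 13.11 to 12.15 and 12.16. Both were called under each scaling. Igf2bp1, a protein that binds Igf2 mRNA, rose by 0.43 ± 0.07 (adjusted p = 0.0280) on its brighter probe, with 0.17 on the other; with the values as deposited it was at -0.065. The insulin receptor Insr stood at 8.92 and 9.26 in the controls against 9.13 and 8.85 in Salv CKO, and the groups overlapped. Grb10, an imprinted adaptor that restrains both receptors, was saturated on control pool 2 on its brighter probe, for which no difference is given. Its dimmer probe was above background on all 4 arrays, at 4.32 and 6.51 in the controls and 7.31 and 7.53 in Salv CKO, and was not called (2.00 ± 0.74, limma adjusted p = 0.178 over all named probes). Igfbp1 was above background on 1 of 4 arrays. Insr, Grb10 and Igfbp1 were named for their roles, after their values had been seen.

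Of 19 listed genes that carry the signal on from the receptors, 17 were measured, 4 fell and 1 rose, with a median difference of -0.33, beside 5.73% lower, 4.92% higher and a median of -0.04 for all genes. The kinase Akt1 fell by 1.03 ± 0.16 (limma adjusted p = 0.0267), from 9.11 and 8.85 to 8.08 and 7.83. The PI3 kinase regulatory subunit Pik3r1 fell by 0.54 ± 0.08 (adjusted p = 0.0220), the docking protein Gab1 by 0.48 ± 0.09 (adjusted p = 0.0399) and the adaptor Grb2 by 0.38 ± 0.07 (adjusted p = 0.0406). These 4 were lower and called under each scaling. With a floor of 16 or 64 over all genes they were not called (adjusted p = 0.0570 to 0.108). Over the alternatives that keep all 4 arrays the adjusted p lay between 0.00539 and 0.220. Foxo3, a transcription factor that Akt keeps out of the nucleus, rose by 1.01 ± 0.13 (adjusted p = 0.0161), from 7.98 and 7.95 to 8.91 and 9.05. Its other probe was above background on 1 of 4 arrays only, and the mean of both probes was -0.54 (adjusted p = 0.650; 0.00322 to 0.650 over all alternatives). With the values as deposited 10 of the 17 were called lower, beside 3101 lower and 230 higher of all 16675 genes.

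Igf2 and Igf2r are imprinted, that is, expressed from 1 parental allele. Of 20 genes listed as imprinted 19 were measured, 4 rose and 1, Igf2r, fell, beside 4.92% higher and 5.73% lower over all genes. The median difference of the list was -0.02. Whether each is expressed from 1 allele in the embryonic heart was not tested. The Notch-like protein Dlk1 rose by 0.78 ± 0.07 (limma adjusted p = 0.00892), Nnat by 0.75 ± 0.08 (adjusted p = 0.0116), the zinc finger gene Peg3 by 0.48 ± 0.08 (adjusted p = 0.0275) and the matrix proteoglycan Dcn by 1.48 ± 0.21 (adjusted p = 0.0205). With the values as deposited Dlk1, Nnat and Peg3 lost their calls, at 0.28 (adjusted p = 0.187), 0.23 (adjusted p = 0.224) and -0.0075 (adjusted p = 0.980). Nnat and Peg3 were not called with division by the median either (adjusted p = 0.0931 and 0.201), nor was Dcn with the mean of its probes (adjusted p = 0.126). With a floor of 16 or 64, Dlk1 alone of these 4 was called, on its brighter probe. The dimmer Dlk1 probe (mMC011839) stood at 0.61 ± 0.15 without a call (limma adjusted p = 0.0783 over all named probes), and at 0.13 with the values as deposited. Over all alternatives the adjusted p lay between 0.000922 and 0.201 for Dlk1, 0.00130 and 0.224 for Nnat, 0.00736 and 0.980 for Peg3, and 0.00217 and 0.222 for Dcn. Cdkn1c, a cell cycle inhibitor whose gene lies near Igf2, was saturated on 2 of 4 arrays.

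**Figure D5:**
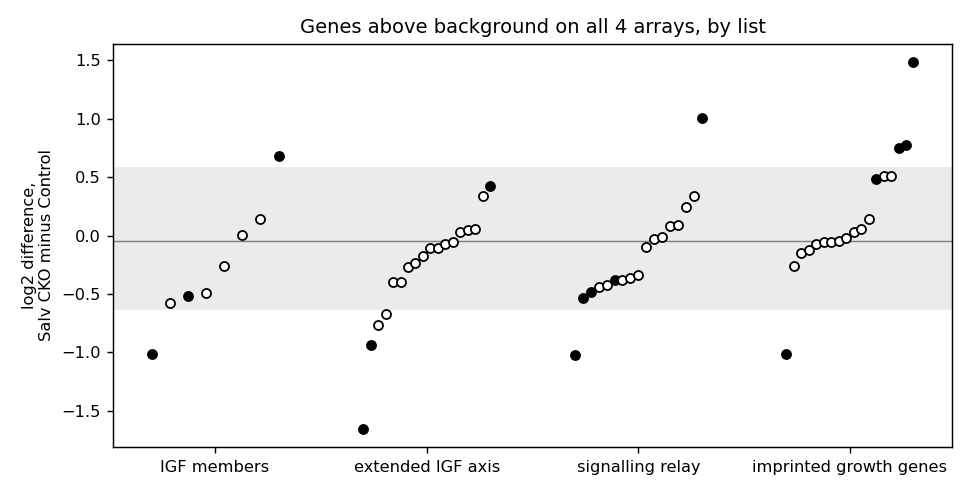
Log2 difference, Salv CKO minus control (vertical axis), of genes above background on all 4 arrays in the IGF member list, the extended IGF axis, the signalling relay and the imprinted genes, in order of size; filled points passed the limma test. The grey band runs from the 10th to the 90th percentile of all 12395 such genes (-0.63 to 0.58) and the line marks their median; Igf2, H19, Cdkn1c and Grb10, saturated on 1 or more arrays, stand at their measured values; Igf2bp1 and Peg3, which are filled and above 0, fell below 0 with the values as deposited.

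Markers of several tissues moved with the groups, and their part in these results was not tested. Beside the counts that follow, 4.92% of all genes were called higher and 5.73% lower. The summed normalised intensity of 8 neural crest markers was 14743 to 14853 in the controls and 49919 to 50020 in Salv CKO, and 4 of 8 rose. The retinoic acid binding protein Crabp1 made up 90.5% of that sum in the controls and 94.7% in Salv CKO; without it the sums were 1335 to 1481 and 2585 to 2686. Of 11 endoderm, liver and yolk sac markers 4 rose (3788 to 4282 against 9393 to 9429), of 10 neural markers 5 rose and 1 fell (4120 to 4570 against 10809 to 11442), of which Zic1 made up 0.702% in the controls and 39.7% in Salv CKO. Of 8 somite markers 3 rose (586 to 618 against 3850 to 3854), with 59.9% and 78.8% from Tcf15. Of 8 mesenchyme markers 4 rose (10631 to 10700 against 16197 to 16774). Of 7 epicardial markers 3 rose (1367 to 1404 against 2778 to 2903), while Wt1, Tcf21 and Upk1b were at or below background on all arrays. Foxd3 and Dlx5 of the neural crest list and Myf5 of the somite list were at or below background as well. Of 10 measured endothelial markers 5 fell (25376 to 26634 against 15084 to 15515), of 11 heart muscle markers 4 fell (351735 to 372221 against 300403 to 306797) and of 7 red cell markers 2 fell (127154 to 127701 against 106308 to 106669). The heart muscle and red cell sums are bounds, since Actc1 was saturated on all 4 arrays, Hba-x on 3, and Myh6, Myl2 and Actn2 on 2 each.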

How the data were processed

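The deposited values are linear Cy5 probe intensities that were background-subtracted by the authors, since 3.37 to 5.99% per array were below 0; each array was a whole multiple of 1 factor (100% within 0.02 of a step). The sources used here name no scanner, software, scaling or genome build. RNA came from column extraction and amino-allyl amplification, per the labels' protocols.

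Columns were quantile normalised, floored at an intensity of 1 and put on the log2 scale with limma 3.58.1 in R 4.3.3. Saturation meant an unscaled intensity of at least 65000 (67 to 122 probes per array). The platform's table of 2013 named 21020 probes; older symbols in it were matched through RefSeq synonyms, and the probe of highest mean stood for each of 16675 genes. limma (lmFit, eBayes with an intensity trend) compared 2 with 2 pools, two-sided, with Benjamini-Hochberg adjustment at 0.05; other probes were tested in a fit over all 21020. The number of arrays limits precision, and p-values measure only the spread between pools, which limma estimates in part from other genes.

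The members, lists and alternatives were chosen with earlier results of these data known. The members with every probe, Sav1 and, per list, up to 4 called genes in each direction with the largest difference were named. Alternatives changed the scaling, floor, filter, spread model, probe rule, pairing or arrays. Tested on 10 simulations of 16675 genes with 200 changed, the fit found 25.7% of 2-fold and 62.5% of 4-fold changes, with 6.05% false calls. The noise was independent, normal and drawn from limma's own fitted spread, so a low share of false calls was built in. Genes of the lowest levels were not changed, and the data had more calls, at 821 and 956. These shares therefore do not measure recovery on these arrays.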

Additional observations from a re-analysis of the deposited data

How the results depend on the processing

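Under the 15 alternatives Igf1, Igf1r, Igf2r, Igfbp2, Igfbp4 and Igfbp5 kept their direction, but most alternatives could not have turned it. The floors, filter, spread models and block left these differences as they were. Leaving out an array or adding 16 cannot turn groups that do not overlap. Only the scalings, and the mean of probes for genes with several, could have turned the direction. Without any 1 array, and without the intensity trend, 0 genes were called in the table, among the members, on their other probes and in each list, so that each of those counts ranged from 0 to 0. All genes called higher (821) numbered 230 with the values as deposited, 378 divided by the median, 254 and 258 with floors of 16 and 64, and 1239 among genes above background on all arrays. Genes called lower (956) numbered 3101 as deposited, 231 and 234 with the floors, and 1442 above background. Members called higher (1) numbered 0 as deposited, divided by the median and with either floor, and 2 with the 75th percentile, where the second is the saturated Igf2. Members called lower (2) numbered 5 as deposited, 4 above background and with a robust prior, 1 with the mean of all probes and 0 with either floor. Their other probes (1 called, the rise of Igfbp3) gave 2 as deposited and 0 with the floors. The 2 as deposited were other probes and both lower, Igf1r mMC024245 (-0.83) and Igfbp5 mMR030084 (-0.78). Relay genes (5) numbered 10 as deposited and 0 with the floors, and imprinted genes (5) numbered 3 divided by the median and 1 with either floor. The cause of these moves was not tested.

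Sav1 was at -0.72 with the values as deposited (adjusted p = 0.0199), and at -0.40 to -0.14 with 1 array left out. Igfbp3 turned to -0.42 as deposited, -0.15 by the median, -0.0098 by the 75th percentile, and -0.12 to 0.13 with 1 array left out. Irs1, below background, ran from -0.12 to 3.33, the dim Igf1r probe from -0.41 to 1.94 and the dim Igfbp4 probe from -1.52 to 0.21. Igf2bp1 and Peg3 turned to -0.065 and -0.0075 as deposited, and Foxo3 to -0.54 with the mean of its probes. With a floor of 16 or 64, Irs1 and the dim Igf1r probe have no value.

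The replicate number was also fitted as a block, a pairing the labels do not explain. With it 6 of the 9 members had an unadjusted limma p under 0.05, against 5 without it. Of all 16675 genes, 4979 did so with the block and 4471 without. With the block Igf1r passed (-0.49, limma adjusted p = 0.0447), and the other named differences stayed on their side of the threshold. Same-numbered pools' deviations correlated at 0.171 over 12395 genes, from only 2 pairs.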

Other observations

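Genes beside the IGF members also had probes that disagreed, and these were chosen after their values had been seen. Shc1, an adaptor that links growth factor receptors to Ras, gave -0.38 ± 0.12 on its brightest probe (limma adjusted p = 0.120). Its other probes rose by 0.93 ± 0.16 (adjusted p = 0.0341 over all named probes) or stood at 0.81 ± 0.17 without a call (adjusted p = 0.0536). Snrpn, an imprinted splicing protein gene, gave -0.13 on its brightest probe (adjusted p = 0.496), whereas its other probes rose by 1.18 ± 0.12 (adjusted p = 0.0111) and 1.02 ± 0.10 (adjusted p = 0.0104). All of these probes were above background on all 4 arrays. All probes of Peg3 lay above 0, at 0.48, 0.93 and 1.04, of which the last, near background, was not called (adjusted p = 0.339).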
